A study of Mus musculus with 6 samples.

Results

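The genes described are 10 early-response genes, chosen by name from 16593 genes named on the array. They are the Egr genes *Egr1*, *Egr2* and *Egr3*, the Krüppel-like factor (Klf) genes *Klf2*, *Klf4*, *Klf5*, *Klf6*, *Klf9* and *Klf10*, and *Ier2*, an immediate early gene of neither family. Every probe that the platform's annotation assigns to them was taken, 13 of 25697 probes. The measurements come from 6 arrays of Illumina mouse BeadChips, hybridized with RNA of calvaria (skull bone) cells sorted for green fluorescent protein (GFP). Of the arrays, 3 are from mice with a floxed ERα gene and the GFP:*Osx1-Cre* transgene and 3 from control mice that carry GFP:*Osx1-Cre* alone. The comparison asks how the absence of ERα, the estrogen receptor encoded by *Esr1*, alters gene expression in cells of the mesenchymal lineage that form bone. In this model both Cre and GFP are driven by *Osx1* (*Sp7*) regulatory sequence, so both groups carry the transgene and both were selected for its activity. The strain is C57BL/6 per the labels, and the sex of the mice is not stated. The study's methods describe calvaria cells of ERα deleted *Osx1-Cre* mice as taken from newborn pups a few days old and cultured, without tying that age to these arrays.

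The sample labels divide the arrays into the same 3 and 3 but call them *Mmp13* knockout and wild type. The paper's names, ERα deleted and control, are used here, and each difference is the arrays labelled knockout minus the arrays labelled wild type. The labelled target, *Mmp13*, was not reduced in the group named for its knockout but raised (brightest probe +3.35 on the log2 scale, SE 0.24, limma adjusted p = 4.8e-04). The 2 *Esr1* probes were not detected on any array (detection p from 0.164 to 0.984), so the deletion could not be read from these data. Whether the replicates came from separate mice or cultures is not stated, and the p-values measure the spread between these arrays, which may be technical. Median scanner signals ran from 85.1 to 108.9 and 40.2% to 43.6% of probes were detected at p under 0.01. Control replicate 2 stood apart: 150 of its tested probes lay over 2 log2 from the mean of the other controls, and the same count was 79 in control replicate 3, 6 in control replicate 1 and 0 on any ERα deleted array. *Sp7*, the factor whose regulatory sequence marks the sorted cells, was detected on all 6 arrays.

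Early growth response (Egr) proteins are zinc finger activators whose genes are switched on within minutes of growth factors, serum or mechanical load, without new protein synthesis. Serum response factor drives this by binding CArG boxes, and the Nab corepressors limit Egr activity. Krüppel-like factors share a zinc finger domain with the Sp proteins and bind GC-rich and CACCC elements. *Klf2* and *Klf4* are best known for quiescence and for flow responses of endothelium, *Klf4* also for pluripotency and epidermal differentiation, *Klf5* for proliferation of epithelial and smooth muscle cells, *Klf6* for wound and stress responses, *Klf9* for responses to steroid hormones and *Klf10* for early responses to TGF-β. In bone, *Sp7* (osterix), a relative of the Klf genes, is required for osteoblast formation.

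RefSeq promoter windows (assembly GRCm38.p6) were matched for 5 of the 10 genes, namely *Egr2*, *Klf2*, *Klf4*, *Klf6* and *Klf9*. Elements of early-response promoters were searched for over 250 bases upstream of the start in every window of these genes. Shown are stretches next to start sites of the called genes *Egr2* and *Klf4*, and of *Klf2*, 5′ to 3′ on the strand of the gene. For *Egr2* a window that holds a CArG box was picked. Capitals mark matches to a CArG box, a MEF2 site, an Egr site (GCGNGGGCG) or a GC box (GGGCGG), searched on both strands.
Egr2, chr10:67537719-67537868, plus strand: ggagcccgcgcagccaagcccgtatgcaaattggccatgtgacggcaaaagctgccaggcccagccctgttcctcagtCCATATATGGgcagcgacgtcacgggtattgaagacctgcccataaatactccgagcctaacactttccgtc
Klf2, chr8:72318842-72319061, plus strand: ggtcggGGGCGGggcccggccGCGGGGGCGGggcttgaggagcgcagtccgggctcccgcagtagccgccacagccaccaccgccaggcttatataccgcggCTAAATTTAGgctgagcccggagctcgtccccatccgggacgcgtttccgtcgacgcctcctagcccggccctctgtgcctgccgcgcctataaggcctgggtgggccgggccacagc
Klf4, chr4:55532476-55532695, minus strand: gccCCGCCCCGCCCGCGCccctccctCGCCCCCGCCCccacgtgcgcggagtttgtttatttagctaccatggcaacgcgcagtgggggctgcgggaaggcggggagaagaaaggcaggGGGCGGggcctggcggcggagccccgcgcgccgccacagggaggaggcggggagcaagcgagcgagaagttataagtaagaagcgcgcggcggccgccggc

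The capitals in the *Egr2* stretch are a CArG box 72 to 63 bases upstream of the start, the element that serum response factor binds. A match to it was held by 1.47% of all 32851 promoter windows, each searched over 250 bases upstream of the start. This stretch is 1 of 5 *Egr2* windows, of which 4 held a CArG box. The windows with starts at 67537869, 67537870 and 67537930 overlap and hold the same box, CCATATATGG, so they are not separate matches. The window with start 67537566 holds another, CCTTTTTTGG, and 1 GC box. The window with start 67535499 holds 4 GC boxes and no CArG box. The *Klf2* stretch holds a MEF2 site 118 to 109 bases upstream, found in 0.508% of windows. Its other capitals are 2 GC boxes and 1 Egr site, of which the Egr site overlaps a GC box. In *Klf4* the matches were 2 Egr sites, at 211 to 203 and 194 to 186 bases upstream, and 4 GC boxes, some of which overlap each other or the Egr sites. Over all windows, 4.7% held an Egr site and 32.7% a GC box. *Klf6* held 1 GC box and *Klf9* none of these motifs. The half-site that estrogen receptors bind, AGGTCA, was in none of the member windows, against 14% of all windows. These are matches of letters and not measured binding.

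Of the 10 genes, 7 were detected (detection p under 0.01 on at least 3 arrays) and tested, and 3 were not detected on any array. In ERα deleted cells *Klf5* was 1.97-fold and *Egr2* 1.35-fold higher, *Klf4* was 2.14-fold lower, and *Egr1*, *Klf2*, *Klf6* and *Klf9* did not pass the test. With the brightest probe standing for each gene, 2 of 7 were thus called higher and 1 of 7 lower at a limma adjusted p under 0.05. Over all 7695 genes tested the same rule called 19.5%, with 9.62% higher and 9.93% lower. The median log2 difference of the 7 genes was -0.01, against -0.04 over all tested genes. Values below are normalized log2 signals, with the ERα deleted arrays in the order replicate 1 and then the other two, which share a heading in the scanner table, and the controls in the order replicates 1, 2 and 3. With 3 arrays against 3, an exact permutation test of 1 gene cannot go below p = 0.1, so groups are also described by whether they overlap. The groups did not overlap at 42.4% of all tested probes.

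**Figure D1:**
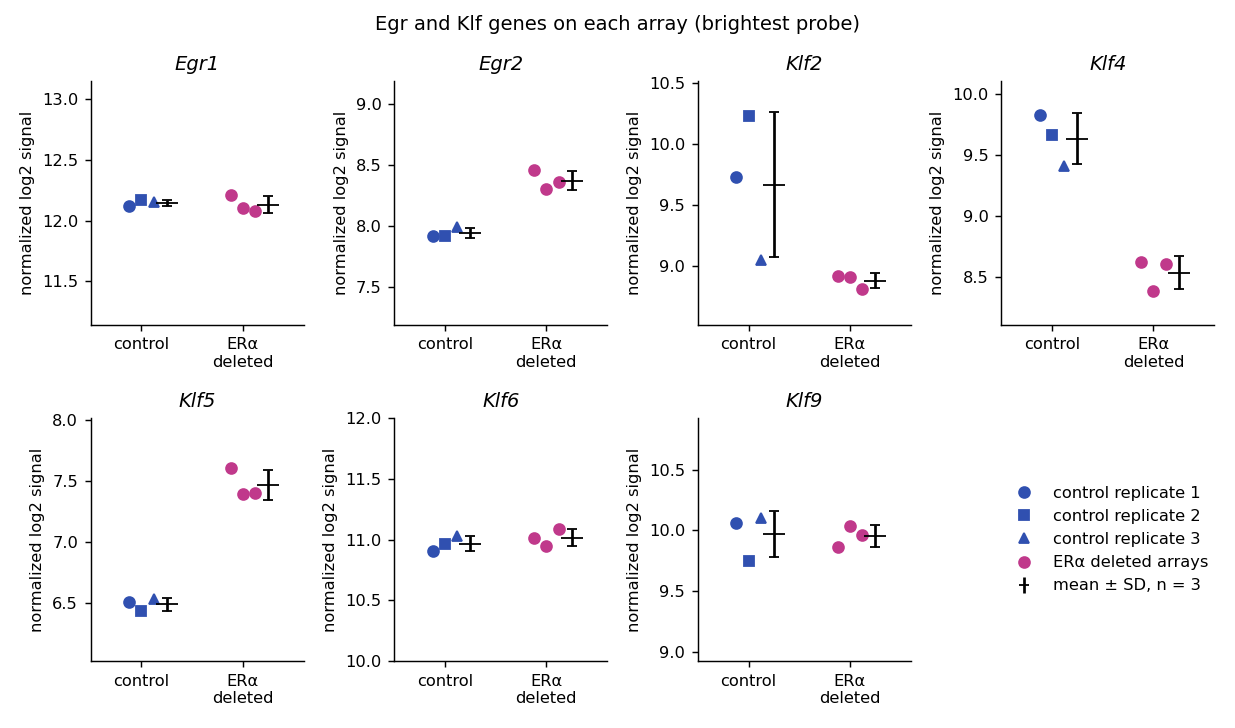
Normalized log2 signal (vertical axes, each spanning 2 log2 units) of the 7 detected genes on each array, by the brightest probe, for control and ERα deleted arrays, with the mean and SD of 3 arrays as a bar beside the points. *Egr2* and *Klf5* lie higher and *Klf4* lower on every ERα deleted array, while control replicates of *Klf2* spread from 9.05 to 10.23.

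*Egr1*, the founding member of the family, did not differ beyond its error. It read 12.21, 12.10 and 12.08 in ERα deleted cells and 12.12, 12.17 and 12.15 in the controls. The scanner signals behind these values ran from 3254.9 to 4963.6 and from 4542.9 to 5726.5. The groups overlapped, and all 6 normalized values lay within a narrow band. The difference was -0.01 (SE 0.10, 95% interval -0.24 to 0.21, limma adjusted p = 0.93), and 97.3% of tested genes had a larger difference in size. The interval leaves out a change of more than 0.24 on the log2 scale in either direction under this normalization. The probes most like that of *Egr1* over the 6 arrays were those of *Urah* (Pearson r = 0.972), *Tti1* (r = 0.970), *Ctu2* (r = 0.961), *Atp6ap1* (r = 0.961) and *Sdhb* (r = 0.954), a description over 6 arrays of a gene that hardly varied.

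*Egr2*, which in other tissues controls Schwann cell myelination and hindbrain patterning, was higher in ERα deleted cells. It read 8.46, 8.30 and 8.36 in ERα deleted cells and 7.92, 7.92 and 7.99 in controls. The groups did not overlap, and the 3 controls lay close together. The difference was +0.43 (SE 0.10, 95% interval 0.19 to 0.67, limma adjusted p = 0.03), and 1090 of the 7695 genes rose more. In the authors' normalized values it was +0.34 (SE 0.08, limma adjusted p = 0.021). The call was not held by every set of arrays: when ERα deleted replicate 1, either of the other ERα deleted arrays or control replicate 1 was removed, the difference was 0.39, 0.47, 0.44 and 0.41 with adjusted p-values of 0.1, 0.081, 0.11 and 0.11. It was also lost with median scaling in place of quantile normalization (0.26, limma adjusted p = 0.51).

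*Egr3*, a related factor of muscle spindles and lymphocytes, was not detected. Its scanner signal ran from 85.0 to 97.7 in ERα deleted cells and from 100.8 to 108.7 in controls, with detection p from 0.0188 to 0.0627. *Egr4*, a further family member, was detected on 1 array of each group and was not tested. The corepressors *Nab1* and *Nab2* were detected on all arrays, and neither was called. *Nab1* differed by +0.11 (SE 0.11, limma adjusted p = 0.49). *Nab2*, itself an Egr target gene, read 6.35, 6.60 and 6.19 in ERα deleted cells and 6.93, 7.13 and 6.70 in controls. Its groups did not overlap, and its difference of -0.54 (SE 0.16) had an adjusted p of 0.064 with limma.

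*Klf4* was the member with the largest fall among the 7 brightest probes. Its brightest probe, ILMN_2999439, read 8.62, 8.38 and 8.60 in ERα deleted cells and 9.83, 9.66 and 9.41 in controls, so the groups were well apart. The difference was -1.10 (SE 0.14, 95% interval -1.44 to -0.76, limma adjusted p = 0.0038), a 2.14-fold lower signal, and 154 genes fell more. The direction and the call were kept with each array left out in turn. In the authors' normalized values the difference was -0.97 (limma adjusted p = 0.0019).

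The other 2 probes of *Klf4* had lower means too, but their size depended on control replicates 2 and 3. ILMN_1241903 read 7.31, 7.35 and 7.21 in ERα deleted cells and 8.45, 10.16 and 7.90 in controls. ILMN_1221264 read 6.07, 5.97 and 6.40 and then 7.55, 8.34 and 6.65. Neither overlapped between groups, yet neither was called, with differences of -1.54 (SE 0.54, limma adjusted p = 0.095) and -1.36 (SE 0.40, limma adjusted p = 0.061). Median scaling called both with all arrays kept (-1.70 and -1.46, limma adjusted p = 0.03 and 0.025). Array weights also called both (-1.31 and -1.23, limma adjusted p = 0.02 and 0.017). Cyclic loess and the authors' normalized values called neither. Control replicate 2 lay 1.99 and 1.24 above the mean of the other controls at these probes, but only 0.03 above it at ILMN_2999439. Without control replicate 2 the differences were -0.87 (limma adjusted p = 0.013) and -0.93 (limma adjusted p = 0.044), so each was smaller and each was then called. Without control replicate 3 they were -2.01 (limma adjusted p = 0.024) and -1.80 (limma adjusted p = 0.0059), larger and also called. The sources used here do not say where the 3 probes lie in the transcript.

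**Figure D2:**
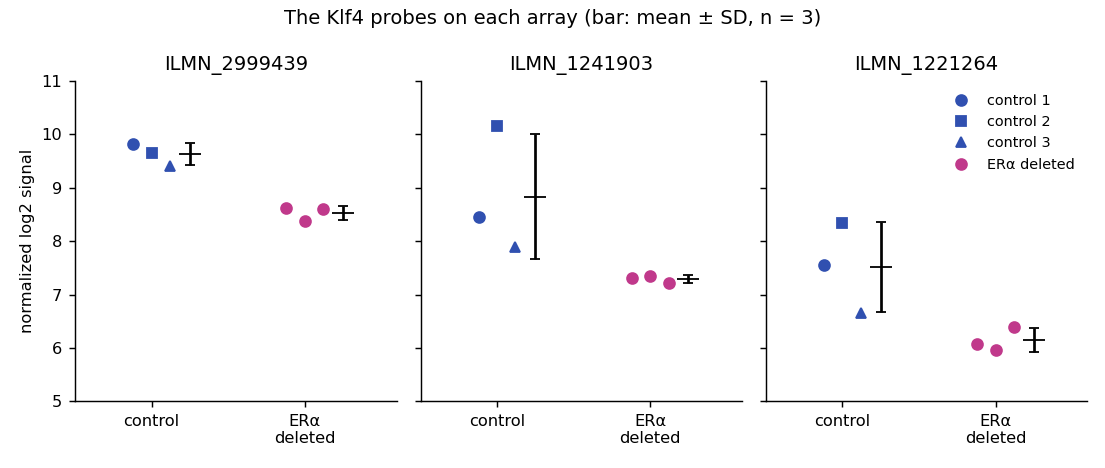
Normalized log2 signal (vertical axis) of the 3 *Klf4* probes on each control and ERα deleted array, with the mean and SD of 3 arrays as a bar. All 3 probes are lower on the ERα deleted arrays, and control replicate 2 (square) is the highest control at ILMN_1241903 and ILMN_1221264 but lies between the other controls at ILMN_2999439.

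*Klf2*, the closest relative of *Klf4* among the members in its endothelial role, showed the same lack of overlap with a wide spread of controls. Its signal was 8.92, 8.91 and 8.81 in ERα deleted cells and 9.73, 10.23 and 9.05 in controls. Control replicate 3 lay near the ERα deleted arrays and control replicate 2 far above them. The difference was -0.79 (SE 0.28, 95% interval -1.47 to -0.12) with a limma adjusted p of 0.1, so it was not called. Without control replicate 3 it was -1.10 and was called (limma adjusted p = 0.0072), and without control replicate 2 it was -0.51 and was not. It was also called with arrays weighted by their quality (-0.79, limma adjusted p = 0.02).

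*Klf5* was the member with the smallest p-value. Its probe read 7.61, 7.39 and 7.40 in ERα deleted cells and 6.51, 6.43 and 6.53 in controls. All ERα deleted arrays lay above all controls, by several times the spread within a group. The difference was +0.98 (SE 0.11, 95% interval 0.71 to 1.24, limma adjusted p = 0.0022), and 373 genes rose more. The scanner signals were dim, from 190.2 to 257.3 against 158.8 to 167.3, and the size of the change moved with the background correction. In the authors' normalized values, made without one, it was +0.63 (1.55-fold, limma adjusted p = 0.0025). With each array left out in turn it ran from 0.91 to 1.02 and was called each time.

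*Klf6* and *Klf9* did not differ beyond their error. The brighter *Klf6* probe read 11.01, 10.95 and 11.09 in ERα deleted cells and 10.91, 10.96 and 11.03 in controls, a difference of +0.05 (SE 0.10, 95% interval -0.19 to 0.29, limma adjusted p = 0.74). Its second probe differed by +0.03 (SE 0.11, limma adjusted p = 0.84), so both *Klf6* probes gave the same picture. *Klf9*, a gene that responds to glucocorticoids and thyroid hormone, read 9.86, 10.04 and 9.96 in ERα deleted cells and 10.06, 9.75 and 10.10 in controls. Its difference was -0.02 (SE 0.13, 95% interval -0.33 to 0.30, limma adjusted p = 0.94), and its groups overlapped, as did those of both *Klf6* probes.

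*Klf10*, known as TGF-β inducible early gene, and *Ier2*, an immediate early gene of growth factor signaling, were not detected on any array. The *Klf10* signal ran from 89.1 to 98.0 in ERα deleted cells and from 101.5 to 109.8 in controls, with detection p from 0.0113 to 0.0865. *Ier2* read from 79.4 to 81.7 and from 82.3 to 93.0, with detection p from 0.15 to 0.792. A level below the detection limit of these probes does not show that the transcripts were absent.

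**Figure D3:**
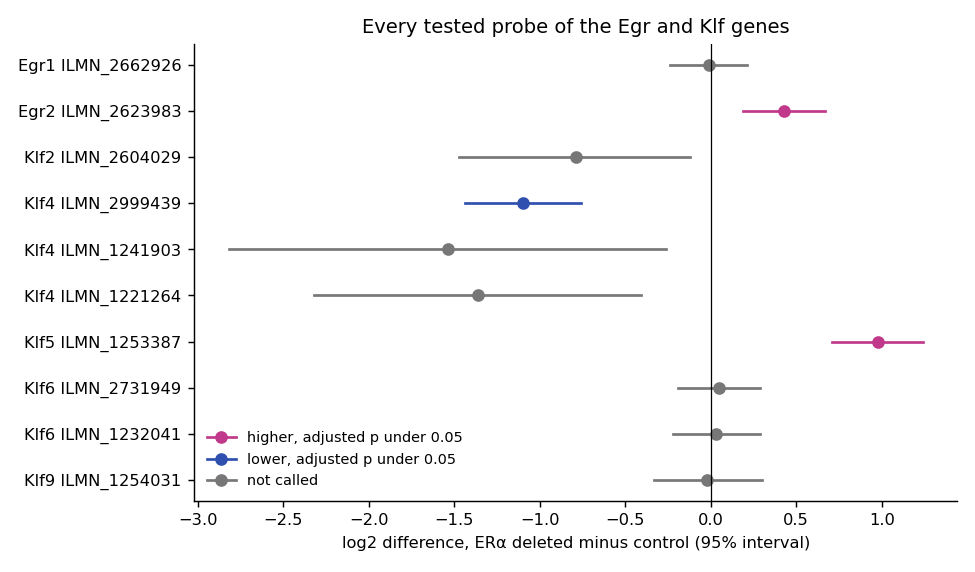
Log2 difference, ERα deleted minus control, with its 95% interval (horizontal axis) for each of the 10 tested probes of the Egr and Klf genes, coloured by direction where the limma adjusted p is under 0.05. *Klf5* and *Egr2* lie above 0 and *Klf4* (ILMN_2999439) below it, while the wide intervals of *Klf2* and the other *Klf4* probes, which leave out 0, did not pass the adjusted threshold.

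Among the relatives of the members *Sp7* was the one gene called. Over all tested genes 19.5% were called, 9.62% higher and 9.93% lower, and the count of relatives called is near that share. Of 10 other Klf genes on the array, 4 were tested and none was called: *Klf3* (-0.02, SE 0.25), *Klf7* (-0.31, SE 0.16), *Klf13* (-0.19, SE 0.23) and *Klf16* (-0.40, SE 0.17). Their median was -0.25, against -0.04 over all tested genes, and their intervals allow sizeable differences (*Klf16* -0.80 to 0.00, *Klf13* -0.75 to 0.37). Of 7 Sp genes on the array only *Sp7* was detected. It read 9.55, 9.36 and 9.40 in ERα deleted cells and 10.40, 10.18 and 10.11 in controls, lower on every ERα deleted array. The difference of -0.80 (SE 0.12, limma adjusted p = 0.0073) was called with each array left out in turn. Because the cells were sorted by a reporter under *Osx1* control, the level of *Sp7* is not independent of the sort. Serum response factor itself, *Srf*, differed by +0.02 (SE 0.11), and *Elk3*, a ternary complex factor that represses until it is phosphorylated, by +0.63 (SE 0.49, 95% interval -0.54 to 1.79), and neither was called.

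Other early-response genes were lower or did not pass the test. Of 34 listed genes 32 were on the array, 22 were tested, 0 were called higher and 7 were called lower. Their median log2 difference was -0.44, against -0.04 over all tested genes and with 9.93% of genes called lower. *Dusp1*, a phosphatase that switches off MAP kinases, read 10.33, 10.16 and 10.21 in ERα deleted cells and 11.34, 11.21 and 11.48 in controls (-1.11, SE 0.11, limma adjusted p = 0.0016). *Ier3*, a survival gene of the early response, differed by -0.94 (SE 0.13, limma adjusted p = 0.0054). The AP-1 subunits *Fosl1* (-1.24, SE 0.18, limma adjusted p = 0.0057) and *Jun* (-0.85, SE 0.13, limma adjusted p = 0.0062) also fell. These 4 genes did not overlap between groups, and all 4 were called with each array left out in turn.

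The 3 remaining calls were the small Maf factor *Maff* (-1.50, SE 0.31, limma adjusted p = 0.021), the nuclear factor *Csrnp1* (-0.49, SE 0.09, limma adjusted p = 0.016) and the polo-like kinase *Plk2* (-0.58, SE 0.12, limma adjusted p = 0.023). All 3 were lost on removal of control replicate 1 or of any ERα deleted array, so that 4 genes were called lower there. With control replicate 3 left out 12 were called lower and 1 higher, and with control replicate 2 left out 7 were called lower. Calls over all 11089 tested probes moved in the same way. On removal of control replicate 1 or any ERα deleted array 343 to 430 probes were called lower, against 1022 with all arrays. Without control replicate 2 it was 1132, and without control replicate 3 it was 1825 lower and 1662 higher. *Fos*, classically induced alongside *Egr1*, differed by -0.17 (SE 0.11, limma adjusted p = 0.29). *Junb* (-0.52, SE 0.46) and *Per1* (-1.03, SE 0.49) were not called, and control replicate 2 lay 1.64 and 1.74 above the mean of the other controls at their probes.

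**Figure D4:**
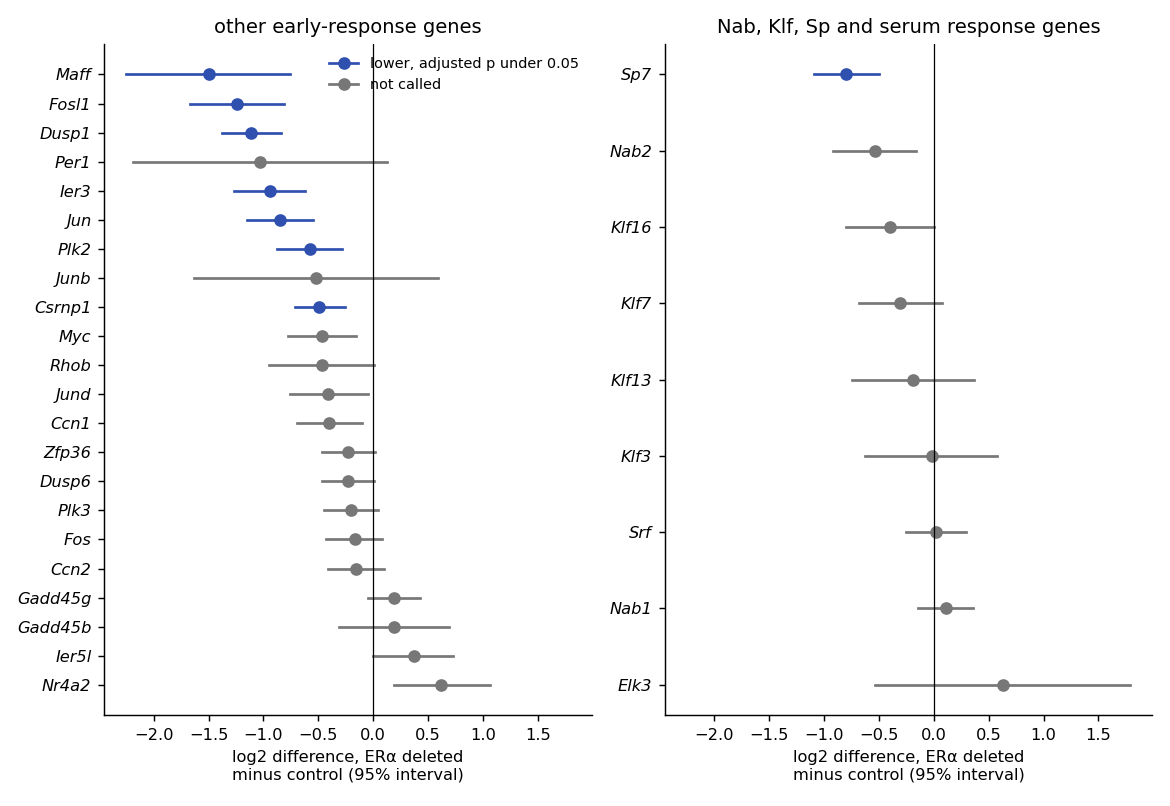
Log2 difference, ERα deleted minus control, with its 95% interval (horizontal axes) for 22 other early-response genes (left) and for the tested Nab, Klf, Sp and serum response genes (right), by the brightest probe. The 7 early-response genes called lower are blue, as is *Sp7*, and no gene in either panel was called higher.

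Among textbook targets of *Egr1*, 7 of 10 were tested, 2 were called lower and 0 higher, with a median of -0.54, against -0.04 and 9.93% called lower over all tested genes. Without control replicate 3, 5 were called lower, adding *Tgfb1*, *Icam1* and *Nab2*. Without control replicate 2, 2 were called lower and 1 higher, and with array weights 4 were called lower and 1 higher. Calls over the whole array moved as well, so the shares above do not hold for these fits. Of 11089 probes, 1825 were called lower without control replicate 3, 1132 without control replicate 2 and 1459 with array weights. With all arrays unweighted it was 1022. *Cd44*, the hyaluronan receptor, read 9.68, 9.73 and 9.53 in ERα deleted cells and 11.43, 11.59 and 11.36 in controls (-1.81, SE 0.11, limma adjusted p = 3.9e-04). *Ptges*, which makes prostaglandin E2, differed by -1.08 (SE 0.16, limma adjusted p = 0.0057). *Egr1* itself did not differ beyond its error beside them. Among textbook targets of *Klf2*, *Klf4* and *Klf6*, 4 of 7 were tested and 1 was called, in the lower direction, with a median of -0.49. This was *Thbd* (thrombomodulin), an endothelial target of *Klf2* and *Klf4*, at 10.11, 10.21 and 10.20 in ERα deleted cells and 10.93, 11.06 and 11.41 in controls (-0.96, SE 0.14, limma adjusted p = 0.0065). Without control replicate 3, 2 were called lower and 1 higher, and without control replicate 2, 2 were called lower. *Tgfbr1*, a *Klf6* target, differed by +0.44 (SE 0.17, limma adjusted p = 0.12).

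Lists of other stimuli that act on these genes were mixed. Of the heat shock genes 6 were tested, and 0 were called by limma. Over all tested genes 9.62% were called higher and 9.93% lower, with a median of -0.04. Of the glucocorticoid response genes 6 were tested and 2 were called lower, with a median of -0.53. These were *Dusp1* again and *Tsc22d3* (-0.60, SE 0.15, limma adjusted p = 0.034). The *Tsc22d3* call was lost on removal of control replicate 1 or of any ERα deleted array. Of 6 tested TGF-β response genes 1 was called higher and 1 lower, with a median of -0.04. *Tgfbi*, a matrix protein gene, rose by 1.71 (SE 0.13, limma adjusted p = 5.9e-04). *Tgif1*, a corepressor of Smad signaling, differed by -0.39 (SE 0.10, limma adjusted p = 0.048), a call lost with any array left out.

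Some markers of the osteoblast lineage, of other cells and of the cell cycle differed between the groups, and others did not. In bulk RNA, fewer cells of a type and less RNA per cell cannot be told apart. For the counts that follow, the shares over all tested genes were 9.62% called higher and 9.93% called lower. Of 8 tested osteoblast lineage markers 4 were called higher and 1, *Sp7*, lower, with a median of 0.71 against -0.04 over all tested genes. *Col1a1* (-0.17, SE 0.21), *Col1a2* (+0.41, SE 0.13) and *Pth1r* (-0.08, SE 0.35) were not called. *Dmp1* and *Phex* were not detected on any array. The summed signal was 26137 to 30318 in ERα deleted cells and 20383 to 29566 in controls, most of it from the bright *Col1a1* and *Col1a2*. *Ibsp* (bone sialoprotein) was at least 3.1-fold higher (limma adjusted p = 4.8e-04), since it was detected on all ERα deleted arrays and on no control. *Bglap2* (+1.48, SE 0.20, limma adjusted p = 0.0041) and *Bglap* (+1.43, SE 0.15, limma adjusted p = 0.0018) encode osteocalcins and are near-identical copies that the probes may not tell apart. *Alpl*, the alkaline phosphatase of mineralization, differed by +1.02 (SE 0.22, limma adjusted p = 0.025), a call lost on removal of control replicate 1 or of any ERα deleted array. Of the list of macrophage and osteoclast markers, 10 of 15 on the array were tested. Calls in the lower direction were made for 9, all genes of macrophages or other myeloid cells, in which *Klf2* and *Klf4* are also expressed. *Ctsk* (cathepsin K), listed here as an osteoclast marker, differed by +0.12 (SE 0.10, limma adjusted p = 0.4). The summed normalized signal of the other 9 was 4343 to 4832 in ERα deleted cells and 12678 to 14024 in controls, and with *Ctsk* it was 9210 to 9264 and 16699 to 18274. The macrophage marker *Itgam* and the osteoclast markers *Acp5*, *Ocstamp* and *Dcstamp* were not detected on any array, so the *Ctsk* signal need not come from osteoclasts. The macrophage marker *Aif1* was detected on 1 array. Epidermal markers summed to 259 to 299 and 487 to 516, with 2 of 3 tested called lower, while *Krt5*, *Krt14*, *Krt1* and *Ivl* were not detected on any array. Endothelial markers summed to 125 to 151 and 105 to 126 over 2 tested genes, neither called, and these went opposite ways. *Esam* differed by -0.62 (SE 0.17, limma adjusted p = 0.051) and *Egfl7* by +0.51 (SE 0.14, limma adjusted p = 0.055). *Pecam1* and *Cdh5* were not detected. Genes of the G2 and M phases of the cell cycle were called higher for 7 of 7 tested, with sums of 8317 to 8681 and 2458 to 2964. Of the 9 listed that were on the array, *Ccnb2* and *Bub1* were not detected on any array. The part of these markers in the differences of *Klf4*, *Klf2*, *Klf5*, *Egr2* and the other early-response genes was not tested.

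**Figure D5:**
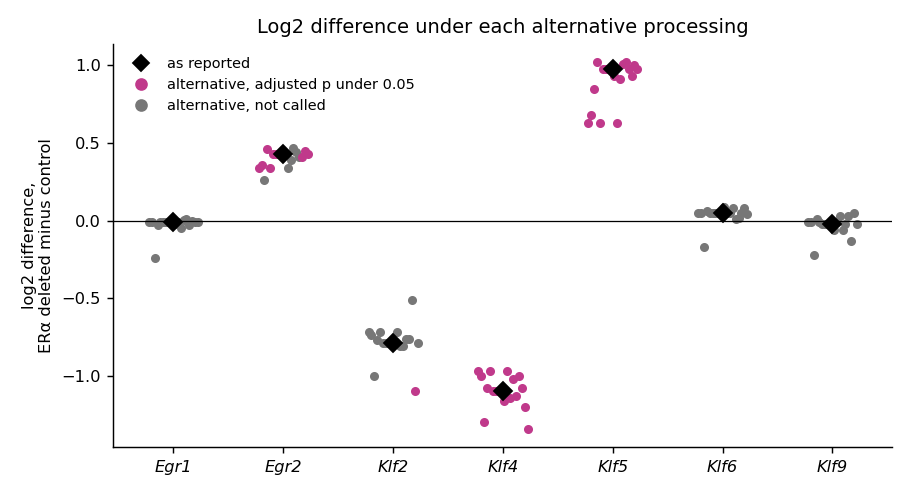
Log2 difference, ERα deleted minus control (vertical axis), of the 7 tested genes as reported (diamond) and under each alternative processing or with an array left out (points, pink where the limma adjusted p is under 0.05). Every point of *Klf4* and *Klf5* is called and keeps its side of 0, *Egr2* keeps its side with some calls lost, and *Egr1*, *Klf6* and *Klf9* stay close to 0 in all settings except median scaling.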

How the data were processed

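The intensities are BeadStudio signals that the authors deposited without background subtraction or normalization, each with a detection p-value. The authors' normalized table holds log2 values, quantile normalized with lumi (version not given in the sources used here). Its 25697 probes were linked one to one to the scanner table by their ranks on the 4 arrays named in both. The scanner table gives 2 ERα deleted arrays the same heading, and they were used by group only.

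Background correction and quantile normalization were done by neqc (limma 3.58.1, R 4.3.3; offset 16, negative controls inferred from detection p). The 11089 probes detected at p under 0.01 on 3 or more of the 6 arrays were tested with lmFit and eBayes, without covariates, and adjusted by Benjamini-Hochberg over all of them. The call threshold was an adjusted p of 0.05. The number of arrays limits the precision.

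The members, lists, tests and rules were chosen with earlier results of these data known. All probes of the members are given, with up to 4 called genes of each other list. Every tested gene of the Egr, Klf, Sp and serum response lists is also given. *Fos*, *Junb*, *Per1*, *Tgfbr1*, *Esam*, *Egfl7*, *Col1a1*, *Col1a2*, *Pth1r*, *Dmp1*, *Phex*, *Ocstamp*, *Dcstamp*, *Ccnb2*, *Bub1* and the calls that leave-one-out removed were named after their values were seen. Genes were named from the platform's annotation (23978 probes with 1 gene, 1719 unlisted).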

Additional observations from a re-analysis of the deposited data

How the results depend on the processing

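Limits are the 3 arrays per group, the dim signal of *Klf5* and the departure of control replicate 2. *Klf4* (ILMN_2999439) and *Klf5* kept direction and call in all 18 alternatives, with *Klf4* from -1.34 to -0.97 and *Klf5* from 0.63 to 1.02. Median scaling moved the median of all tested genes from -0.04 to -0.19. It called 1 member higher, 521 probes higher and 572 lower, with *Egr2* at 0.26 (limma adjusted p = 0.51). Relative to that median, *Egr2* differed by 0.44, *Klf4* by -1.11 and *Klf5* by 1.04. Array weights called 2 members lower, *Klf2* besides *Klf4*. With each array left out, 1 to 2 members were called higher, 1 to 2 lower, 399 to 1662 probes higher and 343 to 1825 lower, against 982 and 1022 with all arrays. The highest counts were those without control replicate 3, and the cause was not tested. In the alternatives that kept all arrays, 5 to 9 other early-response genes were called lower, *Dusp1*, *Ier3*, *Fosl1* and *Jun* each time, and cyclic loess and array weights each called 1 (*Nr4a2*) higher. Over the whole array these alternatives called 572 to 1459 probes lower.

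Deviations of same-numbered arrays did not go together (r = 0.105, -0.055 and -0.05), so the arrays were not treated as pairs. With a replicate block on the authors' table, 1 member was called higher and 613 probes lower, and *Egr2* (0.34) had a limma adjusted p of 0.07.

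Signs turned only for members that were not called. *Egr1* was at 0.0011 and 0.01 without the first or second array of the shared heading. Both *Klf6* probes were at -0.17 with median scaling, and ILMN_1232041 was at -0.00082 without the second array of the shared heading and at -0.0036 without control replicate 1 (highest 0.09 with any array left out). *Klf9* was at 0.01 with cyclic loess and at 0.03, 0.03 and 0.05 without ERα deleted replicate 1, control replicate 1 or control replicate 3 (lowest -0.13 with any array left out).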

Other observations

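The departure of control replicate 2 at *Klf4* also differed between probes of 1 gene elsewhere. At the *Actb* probes ILMN_2588055 and ILMN_2846865 the scanner signal was 22038.4 and 23379.2 on control replicate 2, against 153.1 to 268.4 and 179.6 to 279.4 on the other arrays. At the *Actb* probe ILMN_2698799 control replicate 2 lay 0.05 from the mean of the other controls on the log2 scale. On control replicate 2 *Klf2*, *Junb*, *Per1* and *Eng* were 0.84, 1.64, 1.74 and 1.11 above the mean of the other controls, and *Elk3* and *Klf3* were 1.74 and 0.75 below it.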
